A study of Homo sapiens with 9 samples.

Results

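The 9 genes described here belong to the oligodendrocyte lineage: the transcription factor genes SOX10 and MYRF, the precursor surface genes CSPG4 and GPR17, the myelin protein genes MBP, MAG, CLDN11 and CNP, and the myelin lipid enzyme gene UGT8. They were chosen by name, with earlier results of these data known, and all 9 were among the 19356 genes of the deposited table. Polyadenylated RNA came from LN229 cells, a long-established line grown from a human glioblastoma. The groups were 2 lines labelled as ARNT2 knockouts made by CRISPR, B3 and C4, and wild-type (WT) cells, with 3 libraries each and with all cells grown in DMEM containing 5% FBS. The study addressed what ARNT2, a transcription factor of the bHLH-PAS family, does in proliferation and differentiation of such cells. Each line is represented by libraries of that line alone, so the loss of ARNT2 and any other property of a line cannot be told apart.

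In the brain, oligodendrocyte precursors carry the NG2 proteoglycan encoded by CSPG4 and later differentiate into cells that wrap axons in myelin. SOX10 is needed along this path and MYRF for its last steps, in which the genes of myelin proteins and of galactolipid synthesis are switched on. Several of these genes are also used elsewhere: SOX10 in Schwann cells and melanocytes, CSPG4 in pericytes and melanoma cells, and CNP in many tissues at lower levels.

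Values are the authors' log2 values, scaled between libraries, and changes are log2 differences ± SE, fitted with limma (n = 3 in each group). Calls required an adjusted p below 0.05, by the Benjamini-Hochberg method over the 16457 genes whose mean antilog was at least 10. GPR17 did not reach that level and was not tested, which left 8 tested genes. Nothing in the labels says whether a group was drawn from separate cultures, so p-values measure the spread between these libraries, which may be technical. ARNT2 itself lay at 11.86 to 11.91 in B3 and 12.05 to 12.22 in C4, against 13.56 to 13.59 in WT. Its change was -1.69 ± 0.03 in B3 and -1.43 ± 0.03 in C4, so its RNA was reduced but present in both lines. Read depth is unknown. The median SD between replicates was 0.0452 for values of 8 to 12, 0.0351 for values of 4 to 6 and 0.0196 for values of 2 to 4. Values of weakly expressed genes therefore appear to be drawn towards the gene's own mean, and the changes of MBP, CLDN11 and GPR17 are likely to be understated. In bulk RNA, fewer cells expressing a gene and less RNA per cell cannot be told apart.

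The 9 genes covered almost the whole range of expression. Levels can be compared between genes only per length, so the antilog was divided by the kilobases of annotated exons of each gene. On the log2 scale of that level, SOX10 stood at 15.29 ± 0.02 in B3, 15.43 ± 0.01 in C4 and 15.46 ± 0.01 in WT (SD, n = 3 each), where 99.5%, 99.6% and 99.6% of tested genes with a known length were at or below it. CSPG4 followed at 13.86 ± 0.04 in B3, 13.73 ± 0.05 in C4 and 14.38 ± 0.02 in WT. CNP stood at 13.04 in B3, 13.23 in C4 and 12.93 in WT. MAG stood at 12.37 in B3, 12.01 in C4 and 12.72 in WT, which 92.6%, 90.5% and 94.5% of genes did not exceed. UGT8 stood at 11.04 in B3, 10.81 in C4 and 10.90 in WT, which 79.9%, 76.3% and 77.6% of genes did not exceed. MYRF, at 8.74 in B3, 9.16 in C4 and 9.04 in WT, lay in the middle of the range, with 43.9%, 49.6% and 47.6% of genes at or below it.

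Far below these came CLDN11 at 3.00 in B3, 2.93 in C4 and 3.04 in WT, where 6.6%, 6.2% and 6.7% of genes were at or below it. MBP, whose product holds the compact layers of myelin together, was at 1.29 in B3, 1.47 in C4 and 1.43 in WT, with 1.2%, 1.6% and 1.5% of genes at or below it. GPR17 was lowest at 1.26 in B3, 1.30 in C4 and 1.28 in WT. The order of the 9 means was the same in the 3 groups. MBP and GPR17 overlapped in their B3 libraries, at 1.26 to 1.33 and 1.26 to 1.27 per kilobase, and their order there is not resolved. The annotated exons of MBP span 18615 bases, of which a given transcript uses only a part, so the level of MBP per kilobase may be understated. SOX10 ranked between 50 and 70 among all genes in the 9 libraries by antilog, not corrected for length.

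**Figure D1:**
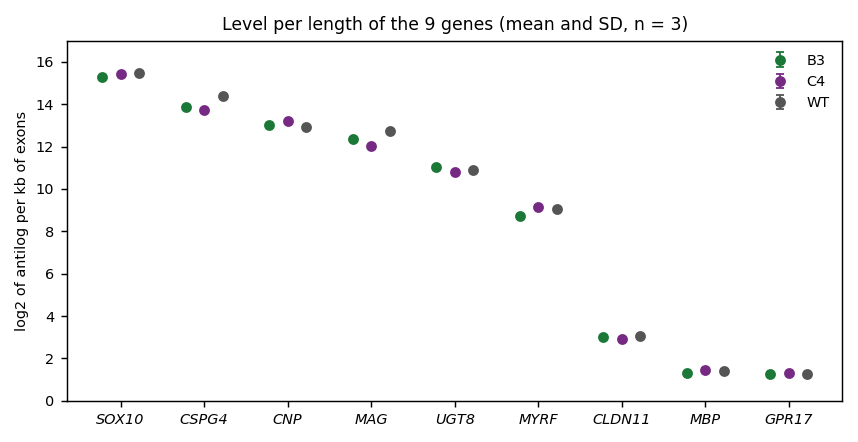
Level per length of the 9 genes: the vertical axis is the log2 of the antilog per kilobase of annotated exons, and each point is the mean of 3 libraries with its SD, for B3, C4 and WT. SOX10 sits near 15 and MBP and GPR17 near 1 in the 3 groups.

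The windows upstream of the start sites are shown for the genes that were lower in both lines (CSPG4 and MAG), for the gene that was higher in both (CNP) and for the gene that held the core ACGTG (UGT8). They are 250 bases long, end just before the RefSeq start site and come from RefSeq on GRCh38.p14, with 5′ to 3′ along the gene. Capitals mark matches, on either strand, of ACGTG, a core bound by dimers of the family to which ARNT2 belongs, and of ACAAAG or ACAATG, core forms of the site bound by SOX factors.
CSPG4, chr15:75712849-75713098, minus strand: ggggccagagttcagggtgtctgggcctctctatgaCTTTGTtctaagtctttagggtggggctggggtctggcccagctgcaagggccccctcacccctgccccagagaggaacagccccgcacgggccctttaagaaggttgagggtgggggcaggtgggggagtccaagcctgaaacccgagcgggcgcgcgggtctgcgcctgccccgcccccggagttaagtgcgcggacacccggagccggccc
MAG, chr19:35291911-35292160, plus strand: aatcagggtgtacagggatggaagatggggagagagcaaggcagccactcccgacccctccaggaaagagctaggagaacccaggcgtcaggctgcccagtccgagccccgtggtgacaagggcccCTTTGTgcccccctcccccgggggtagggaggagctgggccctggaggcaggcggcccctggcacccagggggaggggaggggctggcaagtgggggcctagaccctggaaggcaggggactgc
CNP, chr17:41966545-41966794, plus strand: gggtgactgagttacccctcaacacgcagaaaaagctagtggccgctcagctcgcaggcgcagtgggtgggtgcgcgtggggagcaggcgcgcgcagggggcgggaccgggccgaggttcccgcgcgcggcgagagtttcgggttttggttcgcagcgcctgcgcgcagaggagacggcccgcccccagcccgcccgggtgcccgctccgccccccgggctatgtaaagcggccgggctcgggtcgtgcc
UGT8, chr4:114598152-114598401, plus strand: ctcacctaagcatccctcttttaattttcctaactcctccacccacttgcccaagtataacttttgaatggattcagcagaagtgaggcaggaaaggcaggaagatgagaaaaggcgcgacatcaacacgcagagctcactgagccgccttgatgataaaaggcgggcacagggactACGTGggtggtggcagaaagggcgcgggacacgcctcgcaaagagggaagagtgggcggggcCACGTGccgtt

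RefSeq windows were found for 7 of the 9 genes, 12 windows in all, and SOX10 and MYRF had none. ACGTG was present in 1 of the 12 windows, the UGT8 window above, against 18.5% of 35116 windows of the same length over all genes. It began 73 bases before the start site, and again at 11 and 10 bases before it, where matches on opposite strands overlap in the palindrome CACGTG. The letters ACAAAG were present in 3 windows, those of CSPG4 and MAG and the second window of CLDN11, against 13.7% of all windows. In CSPG4 and MAG it was read on the reverse strand, as CTTTGT, beginning 214 and 124 bases before the start site. ACAATG was present in 2 windows, the second ones of CNP and MBP, against 9.3% of all windows. The printed CNP window held none of these letters. These matches describe the sequence and show no binding.

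Both regulators fell in B3, while in C4 MYRF rose and SOX10 was not called. SOX10, the HMG-box factor of the lineage (ENSG00000100146.16, chromosome 22, 37970686 to 37987422, minus strand, GENCODE 29 on GRCh38), had log2 values of 17.18, 17.20 and 17.16 in B3 and 17.31, 17.34 and 17.32 in C4, against 17.36, 17.34 and 17.36 in WT. Every B3 library lay below every other library, while the highest C4 library (17.342) lay just under the lowest WT library (17.344). SOX10 fell by 0.18 in B3 (-0.18 ± 0.03, a ratio of 0.885, limma adjusted p = 1.49e-05), and its C4 change of -0.03 ± 0.03 was not called (adjusted p = 0.421). With all libraries brought to 1 common total, that C4 value was 0.0011, so no direction can be given for it. The direct comparison of the lines put SOX10 higher in C4 than in B3 by 0.15 ± 0.03 (adjusted p = 8.50e-05).

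MYRF (ENSG00000124920.13, chromosome 11, 61752642 to 61788518, plus strand), a membrane-tethered factor that is cleaved before it enters the nucleus, had 12.14, 12.14 and 12.19 in B3 and 12.50, 12.63 and 12.61 in C4, against 12.54, 12.41 and 12.42 in WT. The B3 libraries were separate from the rest, whereas C4 and WT overlapped, with C4 replicate 1 under WT replicate 1. MYRF fell by 0.30 in B3 (-0.30 ± 0.03, a ratio of 0.813, adjusted p = 2.14e-07) and rose by 0.12 ± 0.03 in C4 (a ratio of 1.09, adjusted p = 0.00446). It was the gene with the widest gap between the lines, 0.42 ± 0.03 higher in C4 than in B3 (adjusted p = 3.78e-10).

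CSPG4 fell in both lines and GPR17 stayed near the bottom of the table. CSPG4 (ENSG00000173546.7, chromosome 15, 75674322 to 75712848, minus strand) had 16.92, 16.94 and 16.87 in B3 and 16.73, 16.77 and 16.83 in C4, against 17.45, 17.40 and 17.43 in WT. The 6 knockout libraries lay well under the WT libraries, and the C4 libraries also lay under the B3 libraries. The change was -0.52 ± 0.03 in B3 (a ratio of 0.698, adjusted p = 2.76e-12) and -0.65 ± 0.03 in C4 (a ratio of 0.639, adjusted p = 1.91e-14). C4 was lower than B3 by a further step, with a difference of -0.13 ± 0.03 (adjusted p = 0.00103). As a share of all antilogs in a library, CSPG4 made up 0.0893% to 0.0936% in B3 and 0.0805% to 0.0869% in C4, against 0.126% to 0.131% in WT.

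GPR17 (ENSG00000144230.16, chromosome 2, 127645864 to 127652639, plus strand), a G-protein coupled receptor that marks precursors about to differentiate, had 2.676, 2.676 and 2.687 in B3 and 2.704, 2.724 and 2.712 in C4, against 2.748, 2.676 and 2.676 in WT. The WT libraries spanned the values of both lines, and no test was made. The 33 tested genes within 5 Mb on either side of GPR17 included 27 that were lower and 0 that were higher in C4 than in WT, with a median of -0.33, against 5 lower and 9 higher in B3, with a median of 0.002. The part of that neighbourhood in the value of GPR17 was not tested. Around the 8 tested genes, the median change of the tested neighbours lay between -0.07 and 0.05 in each line against WT.

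**Figure D2:**
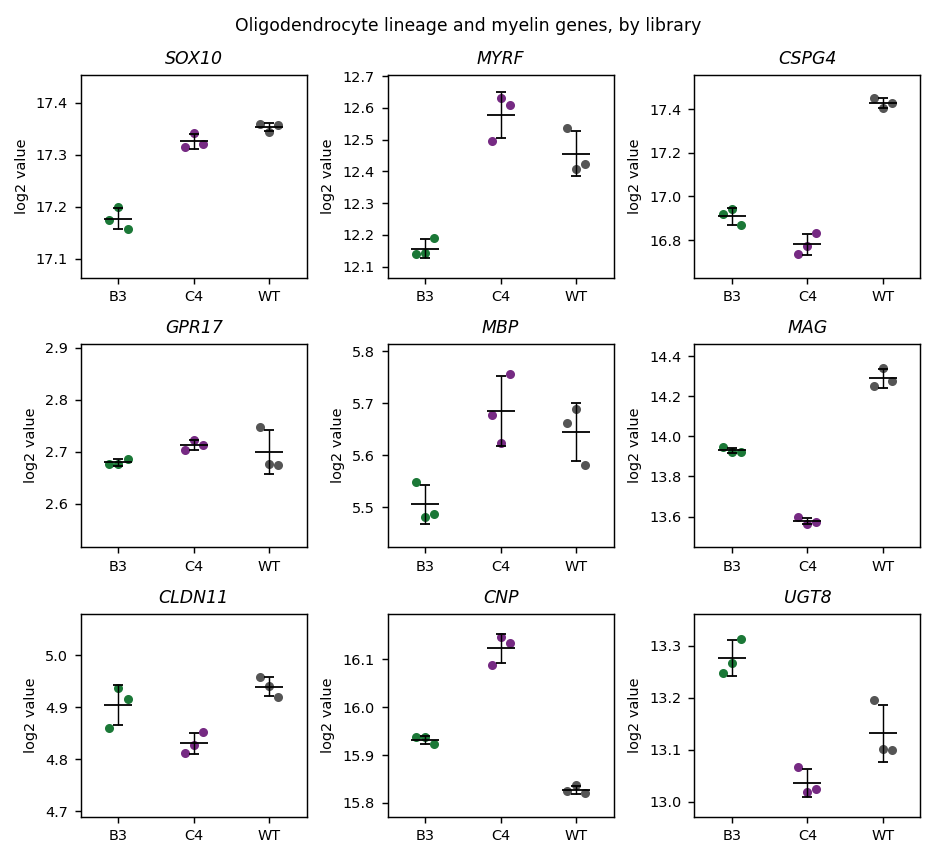
Log2 values of the 9 genes in each library: groups B3, C4 and WT are on the horizontal axis, points are libraries, and the line with its bar gives the mean and SD of 3 libraries. The vertical axes differ in range and do not start at 0; CSPG4 and MAG are lower and CNP is higher in the 6 knockout libraries than in the WT libraries.

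The myelin protein genes did not move as a group. MAG (ENSG00000105695.14, chromosome 19, 35292125 to 35313804, plus strand), a sialic acid-binding adhesion protein of the myelin membrane that faces the axon, had 13.95, 13.92 and 13.92 in B3 and 13.60, 13.56 and 13.57 in C4, against 14.25, 14.34 and 14.27 in WT. The 3 groups were fully apart, with C4 lowest. The change was -0.36 ± 0.02 in B3 (a ratio of 0.780, adjusted p = 2.87e-11) and -0.71 ± 0.02 in C4 (a ratio of 0.611, adjusted p = 4.06e-17). The difference of C4 from B3 was -0.35 ± 0.02 (adjusted p = 1.65e-11). In C4 this was the largest change among the 8 tested genes. The letters CTTTGT in the printed window of MAG were also in that of CSPG4 and in the second window of CLDN11. This motif, read on either strand, was in 13.7% of all windows and was chosen after the values were seen. Its part in these changes was not tested.

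CNP (ENSG00000173786.16, chromosome 17, 41966741 to 41977731, plus strand), a cyclic nucleotide phosphodiesterase of the cytoplasmic channels of myelin, moved the opposite way. It had 15.94, 15.94 and 15.92 in B3 and 16.09, 16.15 and 16.13 in C4, against 15.82, 15.84 and 15.82 in WT. The groups were again fully apart, in the order C4, B3, WT from high to low. CNP rose by 0.11 ± 0.02 in B3 (a ratio of 1.08, adjusted p = 0.000844) and by 0.30 ± 0.02 in C4 (a ratio of 1.23, adjusted p = 2.86e-10), and was 0.19 ± 0.02 higher in C4 than in B3 (adjusted p = 3.46e-07).

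MBP (ENSG00000197971.14, chromosome 18, 76978827 to 77133683, minus strand) had 5.55, 5.48 and 5.49 in B3 and 5.68, 5.62 and 5.76 in C4, against 5.66, 5.69 and 5.58 in WT. The B3 libraries were below the others, and C4 and WT overlapped. MBP fell by 0.14 ± 0.04 in B3 (adjusted p = 0.00408), its C4 change of 0.04 ± 0.04 was not called (adjusted p = 0.373), and it was 0.18 ± 0.04 higher in C4 than in B3 (adjusted p = 0.000286). CLDN11 (ENSG00000013297.11, chromosome 3, 170418865 to 170454733, plus strand), the claudin of central myelin, had 4.86, 4.94 and 4.91 in B3 and 4.81, 4.83 and 4.85 in C4, against 4.96, 4.94 and 4.92 in WT. Its B3 libraries overlapped those of WT, and the C4 libraries lay under both. CLDN11 fell by 0.11 ± 0.03 in C4 (adjusted p = 0.00185), while its B3 change of -0.04 ± 0.03 was not called (adjusted p = 0.319). The difference of C4 from B3, -0.07 ± 0.03, was called (adjusted p = 0.0273), but the call was lost on leaving out B3 replicate 2 (adjusted p = 0.123) or 3 (0.0758), or C4 replicate 1 (0.0877) or 2 (0.0664); the alternatives gave adjusted p of 0.0108 to 0.123.

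UGT8 rose in B3 and fell in C4, the reverse of MYRF. UGT8 (ENSG00000174607.10, chromosome 4, 114598455 to 114678224, plus strand) encodes the ceramide galactosyltransferase that makes the galactolipids of myelin. It had 13.25, 13.27 and 13.31 in B3 and 13.07, 13.02 and 13.02 in C4, against 13.19, 13.10 and 13.10 in WT. The 3 groups did not overlap, with B3 highest and C4 lowest. The change was 0.14 ± 0.03 in B3 (a ratio of 1.10, adjusted p = 0.000137) and -0.10 ± 0.03 in C4 (a ratio of 0.936, adjusted p = 0.00507). The lines themselves differed by -0.24 ± 0.03, with C4 the lower (adjusted p = 8.72e-08). Of the 31 tested genes within 5 Mb on either side of UGT8, 10 were higher and 15 lower in C4 than in WT, with a median of -0.072. In B3, 9 were higher and 7 lower, with a median of 0.001. The part of that neighbourhood in the value of UGT8 was not tested.

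**Figure D3:**
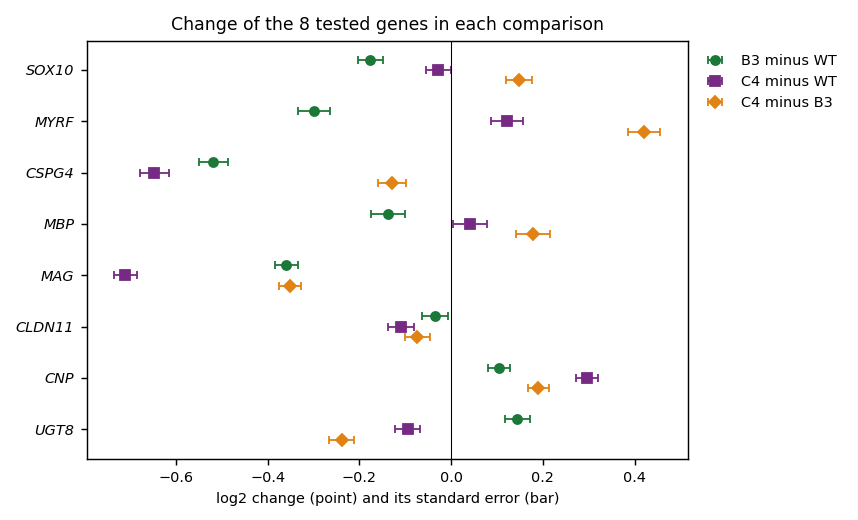
Changes of the 8 tested genes: the horizontal axis is the log2 change and each point has its SE, for B3 minus WT, C4 minus WT and C4 minus B3. CSPG4 and MAG lie left of 0 and CNP right of 0 in both lines, while MYRF and UGT8 lie on opposite sides of 0 in B3 and C4.

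Counted over the 8 tested genes, 2 were higher and 5 lower in B3 than in WT, with 1 not called; of all tested genes 47.9% were called, 23.2% higher and 24.6% lower. In C4 against WT, 2 were higher and 4 lower, with 2 not called, and the share of all genes called was 56.2%, with 28.2% higher and 28% lower. Between the lines, 4 were higher and 4 lower in C4 than in B3, against 56.4% of all genes called, 28.6% higher and 27.8% lower. Of the 9 genes, 6 had a mean log2 value of at least 12, and genes at that level were called more often, at 61.6% for B3 against WT, 69.5% for C4 against WT and 69.5% for C4 against B3. Groups did not overlap in 7 of the 8 genes for B3 against WT, in 6 for C4 against WT and in 8 for C4 against B3, where the shares over all genes were 53.8%, 60.7% and 62.3%. The median change was -0.16 in B3 and -0.06 in C4 over the 8 genes, against 0.00012 and 0.0012 over all tested genes. With 1 common total for the libraries, 64.2% of all called genes were higher in B3, against 48.5% with the deposited scaling, and 61.5% were higher in C4, against 50.2%; the calls of the 8 genes against WT were unchanged by that scaling.

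Summed over the 9 genes, the antilogs had a log2 of 18.47 ± 0.02 in B3 and 18.52 ± 0.02 in C4, against 18.74 ± 0.01 in WT (SD, n = 3 each). SOX10 and CSPG4 made up most of that sum. Without that pair the log2 sum of the other 7 genes was 16.50 ± 0.002 in B3 and 16.58 ± 0.02 in C4, against 16.50 ± 0.01 in WT. The B3 libraries (16.498 to 16.502) then lay within the WT range (16.490 to 16.514), and the C4 libraries (16.559 to 16.601) lay above it. Most of that smaller sum was CNP, at a mean log2 value of 15.93 in B3 and 16.12 in C4, against 15.83 in WT. Of the genes in it, CNP and MYRF rose in C4, while MAG, UGT8 and CLDN11 fell, MBP was not called and GPR17 was not tested.

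A further 46 genes of the lineage were listed by role, of which 43 were in the table and 34 passed the filter on low values. MOBP, OPALIN and HAPLN2 were not analysed here. In B3, 7 of the 34 were higher and 14 lower than in WT, with a median of -0.02. In C4, 16 were higher and 10 lower, with a median of 0.06. Between the lines, 20 were higher and 8 lower in C4 than in B3, with a median of 0.13. The called genes thus numbered 21, 26 and 28 of the 34, where 47.9%, 56.2% and 56.4% of all tested genes were called in the same comparisons.

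The counts by role are small and are to be read against those shares of all genes, 47.9% in B3 and 56.2% in C4. Among precursor genes, 3 of 11 tested rose and 5 fell in B3, and 5 rose and 4 fell in C4. Of OLIG1 and OLIG2, helix-loop-helix factors of the lineage, OLIG1 was called in the opposite direction to CSPG4 in both lines and OLIG2 in C4 only. OLIG1 rose by 0.46 ± 0.05 in B3 and 0.66 ± 0.05 in C4 (limma adjusted p = 1.08e-07 and 1.48e-10). OLIG2 was at 0.07 ± 0.03 in B3, not called (adjusted p = 0.0652), and rose by 0.32 ± 0.03 in C4 (adjusted p = 6.89e-09). The growth factor receptor gene PDGFRA, which with CSPG4 marks precursors, changed in the same direction as CSPG4, by -0.21 ± 0.03 in B3 and -0.63 ± 0.03 in C4 (adjusted p = 4.21e-06 and 1.54e-14). PDGFRA had 13.11, 13.12 and 13.12 in B3 and 12.74, 12.67 and 12.67 in C4, against 13.40, 13.31 and 13.26 in WT, so that its groups were fully apart. NKX2-2, a homeobox factor of precursor differentiation, changed by 0.085 ± 0.03 in B3 and -0.10 ± 0.03 in C4 (adjusted p = 0.0135 and 0.00264). ZNF488, a zinc finger factor of the lineage, was at 0.02 ± 0.04 in B3, not called (adjusted p = 0.640), and rose by 0.50 ± 0.04 in C4 (adjusted p = 2.68e-11).

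Of 6 tested premyelinating genes, 1 rose and 2 fell in B3, and 3 rose and 2 fell in C4. GPR37, a receptor gene of maturing oligodendrocytes, changed by -0.09 ± 0.03 in B3 and 0.37 ± 0.03 in C4 (adjusted p = 0.00560 and 4.64e-11). The adhesion gene NFASC changed by -0.13 ± 0.03 in B3 and -0.29 ± 0.03 in C4 (adjusted p = 0.000413 and 3.46e-09). The sphingosine phosphate receptor gene S1PR5 was at -0.10 ± 0.04 in B3, not called (adjusted p = 0.0566), and rose by 0.16 ± 0.04 in C4 (adjusted p = 0.00176).

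Of 9 tested myelin protein genes, 2 rose and 3 fell in B3, and 5 rose and 3 fell in C4. The connexin gene GJB1 rose by 0.12 ± 0.04 in B3 and 0.77 ± 0.04 in C4 (adjusted p = 0.00826 and 8.35e-15). GPM6B, a membrane glycoprotein gene, fell in both lines, by 0.70 in B3 and 0.46 in C4 (-0.70 ± 0.04 and -0.46 ± 0.04, adjusted p = 5.49e-12 and 4.45e-09). Of 8 tested lipid and metabolic genes, 1 rose and 4 fell in B3, and 3 rose and 1 fell in C4. The protease gene KLK6 changed by -0.58 ± 0.05 in B3 and -0.19 ± 0.05 in C4 (adjusted p = 8.55e-10 and 0.00214). The iron carrier gene TF fell in B3 (-0.37 ± 0.03, adjusted p = 1.41e-09) and was at 0.07 ± 0.03 in C4, not called (adjusted p = 0.0826). The deacetylase gene SIRT2 was at 0.04 ± 0.03 in B3, not called (adjusted p = 0.371), and rose by 0.22 ± 0.03 in C4 (adjusted p = 8.36e-06).

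**Figure D4:**
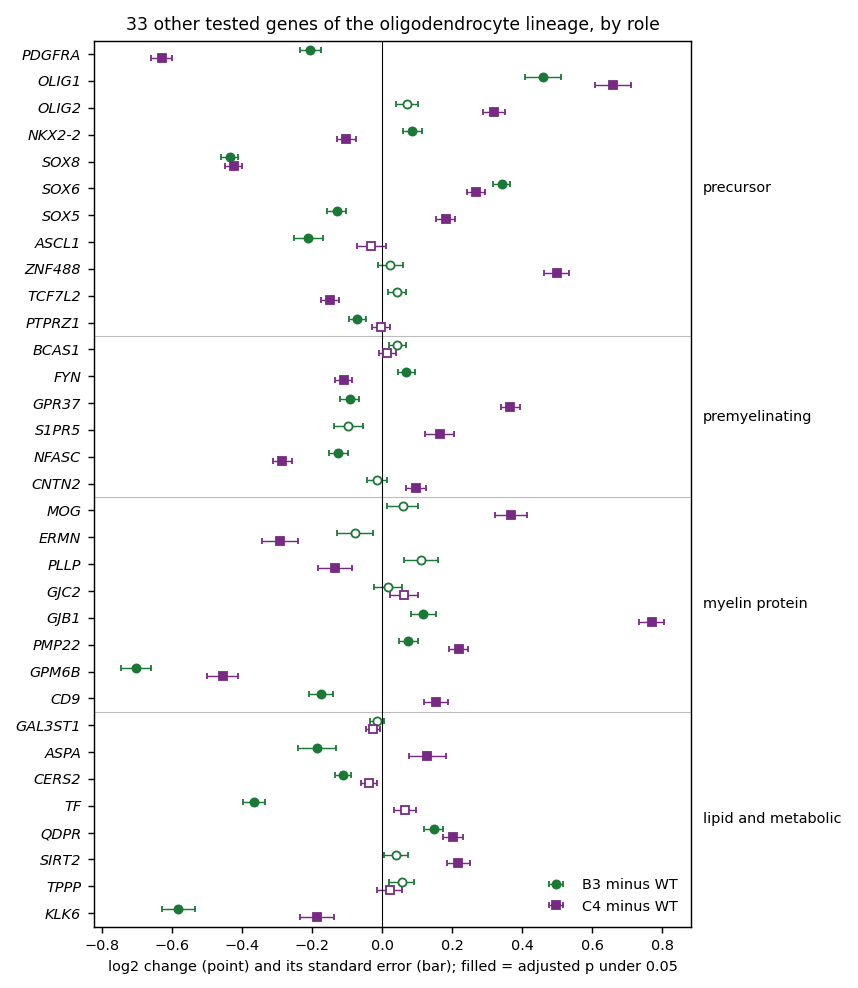
Changes of 33 of the 34 other tested lineage genes by role: the horizontal axis is the log2 change against WT with its SE, circles are B3 and squares C4, and filled symbols were called. PDGFRA and GPM6B lie left of 0 and OLIG1 and GJB1 right of 0 in both lines.

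Because SOX10 and CSPG4 are used by other cell types, markers of those types were read in the same libraries. Of all tested genes, 23.2% were called higher and 24.6% lower in B3, and 28.2% higher and 28% lower in C4, against which the counts of each short marker list stand. The 7 Schwann cell and neural crest markers were all expressed above the filter, and their antilogs summed to a log2 of 17.71 to 17.76 in B3 and 17.80 to 17.82 in C4, against 17.86 to 17.97 in WT. The neurotrophin receptor gene NGFR changed by -0.49 ± 0.04 in B3 and 0.16 ± 0.04 in C4 (limma adjusted p = 9.99e-11 and 0.000602). In that list 3 genes rose and 3 fell in each line. Of 6 melanocyte markers 5 were tested (TYR was not analysed here), with 1 higher and 1 lower in B3 and 5 higher and 0 lower in C4. Their summed log2 was 12.53 to 12.56 in B3 and 12.84 to 12.88 in C4, against 12.48 to 12.50 in WT. Most of that sum was MITF, at a mean log2 value of 12.29 in B3 and 12.35 in C4, against 12.18 in WT. MITF was the marker called higher in B3 (0.11 ± 0.03, limma adjusted p = 0.000866), where PMEL and MLANA were not called. DCT and TYRP1, enzymes of melanin synthesis, rose by 1.46 ± 0.05 and 1.02 ± 0.04 in C4 (adjusted p = 1.31e-17 and 1.58e-15), and in B3 DCT was at -0.04 ± 0.05 and TYRP1 at -0.45 ± 0.04 (adjusted p = 0.515 and 7.48e-09).

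Of 8 pericyte markers 7 were tested, with 0 higher and 5 lower in B3 and 1 higher and 3 lower in C4, and ABCC9 was under the filter. Their summed log2 was 15.60 to 15.67 in B3 and 15.74 to 15.78 in C4, against 15.89 to 15.94 in WT. Most of that sum was MCAM, a cell adhesion molecule gene, at a mean log2 value of 15.48 in B3 and 15.57 in C4, against 15.73 in WT. The median change of the 7 markers was -0.25 in B3 and 0.011 in C4, where KCNJ8, a potassium channel gene, rose by 0.24 ± 0.05 (adjusted p = 0.000285). RGS5 changed by -1.22 ± 0.05 in B3 and NOTCH3 by -0.30 ± 0.04 in B3 and -0.62 ± 0.04 in C4 (adjusted p = 1.39e-14, 2.21e-07 and 7.15e-13), while RGS5 was at 0.10 ± 0.05 in C4, not called (adjusted p = 0.127). Of 6 tested astrocyte markers, 3 rose and 1 fell in each line. GFAP rose by 0.25 ± 0.05 in B3 and 0.23 ± 0.05 in C4, and S100B by 0.20 ± 0.03 in B3 and 0.27 ± 0.03 in C4. GJA1 was at 0.16 ± 0.03 in B3 and -0.38 ± 0.03 in C4, and SLC1A3 at -0.30 ± 0.03 in B3 and 0.31 ± 0.03 in C4. AQP4 and SLC1A2 were not called in either line. Of 3 tested neuron markers, 2 fell in each line, SYT1 at -0.08 ± 0.03 in B3 and -0.50 ± 0.03 in C4 and SNAP25 at -0.14 ± 0.03 in B3 and -0.23 ± 0.03 in C4. Of 3 tested immune markers, CD68 alone was called, at 0.27 ± 0.03 in B3, and PTPRC was under the filter. The part of these other markers in the values of the 9 genes was not tested.

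Of the 9 genes, 4 share annotated exon bases with another gene in the table. SOX10 shares 89 bases, or 2.4% of its exons, with POLR2F on the other strand, CNP 5.4% with DNAJC7, MYRF 3.7% with TMEM258 and GPR17 7.3% with LIMS2, each on the opposite strand. Whether reads were counted by strand is not given in the sources used here, so reads of such bases may be shared. Further genes overlap annotated genes that were not analysed here: CLDN11 shares 18.3% of its exon bases with AC026316.5 on the same strand, and MBP 8.8% with AC093330.1 and CSPG4 6.8% with AC105020.4, both antisense.

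Across the 9 libraries, the genes whose log2 values most resembled those of SOX10 were ZNF398, CBFB and CYTH3, with Pearson r of 0.991, 0.991 and 0.989. For MBP they were GNRH1, CDON and FBN1 (r of 0.973, 0.945 and 0.941), and for CSPG4 they included HR and FREM2 (r of 0.995 and 0.993). These correlations rest on 3 groups of 3 libraries that share their line, and are given as a description.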

How the data were processed

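Polyadenylated RNA of 9 libraries (3 each of B3, C4 and wild type) was analysed. Per the submitters' processing notes, the authors used STAR 2.7.3a, Subread 1.6.3 and DESeq2 with build hg38, with no role or order given. The deposited table holds log2 values per library, scaled by the authors. Their transform is not named, and its shrinkage of low values is inferred from the spread between replicates.

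A mean antilog of 10 or more was required of a gene. With limma 3.58.1 under R 4.3.3, such genes were fitted together, with 1 mean for each group and variances moderated along an intensity trend, and p-values were adjusted by Benjamini-Hochberg over all 16457 genes. The filter left out 2899 genes. The procedure was tested on simulated data. Changes were placed there only in genes with higher values than MBP and CLDN11, so that test does not cover calls at their levels. Exon lengths and positions came from GENCODE 29, which held 92.6% of the tested symbols. Upstream windows came from RefSeq, and the motifs were chosen after the values were seen. Tables were read with version 1.17.8 of the data.table package and figures drawn with matplotlib 3.10.9.

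The 9 genes, the other lists and the tests were chosen with earlier results of these data known. Named genes were the 9, up to 3 called genes with the largest change per role list, PDGFRA, OLIG1, OLIG2 and NKX2-2, up to 2 per marker list, and the 3 genes most like SOX10, MBP and CSPG4. Some genes that this rule names are not reported here. The Schwann cell, melanocyte, pericyte, astrocyte, neuron and immune lists hold markers of other cell types. Alternatives were other pseudocounts, filters, scalings, moderation, a fold threshold, leaving out each library, a replicate block and fits of the compared groups.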

Additional observations from a re-analysis of the deposited data

Results flagged for a closer look

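The lines differed from each other in each of the 8 tested genes, by limma's test of C4 minus B3 with n = 3 libraries each and Benjamini-Hochberg adjustment over all genes. The difference was 0.148 for SOX10 (adjusted p = 8.50e-05), 0.421 for MYRF (adjusted p = 3.78e-10), 0.179 for MBP (adjusted p = 0.000286) and 0.191 for CNP (adjusted p = 3.46e-07), each higher in C4. It was -0.351 for MAG (adjusted p = 1.65e-11), -0.129 for CSPG4 (adjusted p = 0.00103), -0.239 for UGT8 (adjusted p = 8.72e-08) and -0.0737 for CLDN11 (adjusted p = 0.0273), each lower in C4. The CLDN11 call was lost in 4 of 18 alternatives, each leaving out 1 library (B3 replicate 2 or 3, C4 replicate 1 or 2), with adjusted p up to 0.123. Of all tested genes, 56.4% were called in that comparison.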

How the results depend on the processing

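With a further threshold of 0.25 on the absolute log2 change, the called genes among the 8 numbered 3 in B3 against WT, 3 in C4 against WT and 2 in C4 against B3. The other lineage genes then numbered 7, 13 and 12, and all genes 1532, 2496 and 2681, in the same order. Leaving out 1 library at a time gave 7 to 7, 6 to 6 and 7 to 8 of the 8 genes, 18 to 21, 24 to 27 and 25 to 28 other lineage genes, and 6944 to 8016, 8387 to 9272 and 8363 to 9596 genes in all. With a filter at a mean antilog of 50, MBP and CLDN11 were not tested, and 6, 5 and 6 members were called. Genes called in all at that filter numbered 7690 in B3 against WT and 8919 in C4 against WT. The 6 members still tested had a mean log2 value of at least 12. Of all genes at that level, the main fit called 61.6%, 69.5% and 69.5% in the same order of comparisons. Apart from the threshold of 0.25, and where a gene was tested, the alternatives gave 510 log2 changes of the 9 genes and ARNT2. Of these, 505 kept their direction and, where the main fit tested the gene, their side of the adjusted p threshold. Other filters, other moderation, the replicate block, fits of the compared groups and leaving out a library of the third group do not alter the log2 change itself. In those alternatives only the adjusted p could move. SOX10 in C4 against WT turned to 0.0011 under 1 common total for the libraries (adjusted p = 0.974), and CLDN11 between the lines lost its call without any of 4 libraries, as given above. Deviations from the group mean had correlations of -0.229 to 0.016 between same-numbered libraries of different groups. Differently numbered libraries were not compared, so whether the numbers pair the libraries cannot be told. With a replicate block 7, 6 and 8 of the 8 genes were called, and 7504, 8961 and 9017 genes in all. Counts were not used, because the table holds log2 values, and the unknown depth limits what can be said of MBP, CLDN11 and GPR17.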
